A study of Mus musculus with 12 samples.

Results

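The integrin subunits Itga2, Itga3, Itga5, Itga6, Itga7, Itgav, Itgb1, Itgb3 and Itgb5 were followed in mouse embryonic stem cells that carried or lacked Phf6 and that were kept as stem cells or driven out of that state. These 9 genes were selected by symbol from the 53379 genes of the deposited tables, and all 9 were found and passed the filter on low counts. They are 9 of the 26 genes of the integrin family. Because they were chosen from results of these same libraries, their levels and changes are given here as a description and support nothing further.

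The series holds 12 RNA-seq libraries in 6 groups of 2. All came from ZHBTc4, an embryonic stem cell line of strain 129/Ola in which both native Pou5f1 (Oct4) alleles are disrupted and a transgene that doxycycline switches off supplies Oct4, so the untreated cells of both genotypes already depend on that transgene. Wild type (WT) and Phf6 KO cells were each left untreated, given doxycycline for 2 days, or moved to medium lacking the stem cell factor LIF with all-trans-retinoic acid for 4 days. PHF6 is a chromatin-binding protein, and the study compared the genotypes within each treatment. The labels give doxycycline at 0.5 µg/ml while the protocol text says 0.5 mg/ml, and retinoic acid is stated there as 10 mM, so the doses are uncertain. After their first passages on fibroblast feeders the cells grew on gelatin without feeders. The labels do not say how many KO clones were used or whether the 2 replicates of a group were grown apart, so a p-value here reflects the spread between samples that may be technical copies. RNA of the retinoic acid groups was purified with a column kit after Trizol. That of the other groups is described with Trizol alone. Extraction, the removal of LIF and the 4 days of treatment thus cannot be told apart from retinoic acid in the comparisons with untreated cells. Changes given below for retinoic acid are those of this whole treatment.

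Integrins are cell surface receptors made of 1 alpha and 1 beta chain that hold cells to the extracellular matrix. The alpha chain largely sets the ligand. Itga5 and Itgav give receptors for fibronectin, vitronectin and other proteins with the short RGD sequence, Itga3, Itga6 and Itga7 give laminin receptors, and Itga2 gives a collagen receptor. Itgb1 is the beta chain of most of these pairs, whereas Itgb3 and Itgb5 pair with Itgav. In the early embryo the alpha6 and beta1 chains attach epiblast and trophectoderm cells to laminin-rich basement membrane. Inside the cell, talin and kindlin bind the beta tail and link it to actin, and the alpha tail holds a short motif at the membrane, GFFKR, that helps keep the receptor inactive.

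The coding sequence around these tail motifs is shown first because it is the part of the 9 genes through which the adaptor genes described further on act. In the alpha chains the capitals mark the 15 bases that encode GFFKR, with 15 bases on either side, 5′ to 3′.
Itga5: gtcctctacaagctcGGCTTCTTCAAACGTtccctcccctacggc
Itgav: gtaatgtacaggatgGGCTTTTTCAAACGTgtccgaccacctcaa
Itga3: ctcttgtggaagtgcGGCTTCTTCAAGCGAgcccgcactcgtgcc
Itga6: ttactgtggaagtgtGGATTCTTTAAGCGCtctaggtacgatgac
Itga7: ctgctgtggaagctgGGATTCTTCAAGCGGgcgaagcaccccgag
Itga2: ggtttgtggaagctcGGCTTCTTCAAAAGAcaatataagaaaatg
In the beta chains the capitals mark the 12 bases that encode the first NPxY motif, the talin binding site.
Itgb1: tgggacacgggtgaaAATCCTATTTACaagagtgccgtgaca
Itgb3: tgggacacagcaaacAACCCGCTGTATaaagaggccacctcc
Itgb5: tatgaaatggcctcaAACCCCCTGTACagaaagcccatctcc
These stretches were read from the GENCODE M21 transcripts. Of the 15 motif bases 9 were the same in all 6 alpha chains, and of the 12 motif bases 7 were the same in the 3 beta chains. For each gene the longest coding transcript with the motif was read. In these transcripts the tail after GFFKR differed in length, from 20 codons in Itga2 and 21 in Itga5 to 47 in Itga6 and 70 in Itga7. Itga3, Itga6, Itga7 and Itgav each have a further transcript with GFFKR, whose tail length is not given here. Itga3 also has an annotated transcript whose end lacks GFFKR, and Itgb5 has a transcript whose end lacks NPxY. The gene totals used here do not separate such variants.

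Levels are given on a pair of scales. Levels in CPM are the authors' expected counts scaled by TMM to a common depth and are compared between groups for 1 gene, and TPM is the deposited value per transcript length and is compared between genes within a group. Each library held 15799517 to 21441996 counts. The limit that a count of 0 allows, 3 counts, thus corresponds to 0.14 to 0.19 CPM before TMM scaling. With that scaling the limit averaged 0.182 CPM in untreated WT and 0.187 CPM in untreated KO. This limit covers counting error only. Phf6 stood at 40.2 to 42.8 CPM in untreated WT, 29.9 to 35.1 in WT with doxycycline and 40.3 to 40.7 in WT with retinoic acid, against 4.49 to 6.50, 7.38 to 8.19 and 5.90 to 5.96 CPM in the matching KO libraries, so the genotype labels and the Phf6 reads go the same way. Pou5f1 lay at 1013 and 1031 CPM in untreated WT and at 34.0 and 46.3 with doxycycline, and at 1193 and 1196 against 13.0 and 14.3 CPM in the KO. The 10 pluripotency markers summed to 7827 to 9209 TPM in the untreated libraries, in which all 10 were detected. Genes of chromosome 1 stood apart in the KO libraries, with 51.7% of 1087 called lower in untreated cells against 12.5% of all other genes. None of the 9 integrin genes lies on chromosome 1, but ligand genes such as Fn1, Lamb3 and Lamc1 and the adaptor Tns1 do.

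Itga6 and Itgb1 were the 2 most abundant of the 9 in every group per transcript length. In untreated WT, Itga6 averaged 65.9 ± 1.94 TPM (SD, n = 2) and Itgb1 62.8 ± 4.95, and the libraries of the 2 genes overlapped. Itga5 (26.1 ± 0.502 TPM), Itga3 (23.3 ± 0.615) and Itgb5 (21.5 ± 0.919) followed, then Itgav (5.21 ± 0.629), Itga7 (2.63 ± 1.34) and Itgb3 (1.93 ± 0.226), with Itga2 at 0 in both libraries. Itga7 and Itgb3 overlapped and the other neighbours in this order did not. The untreated KO order was Itga6 (86.8 ± 6.94 TPM), Itgb1 (58.7 ± 0.636), Itga3 (24.3 ± 1.73), Itgb5 (21.2 ± 1.52), Itga5 (20.7 ± 0.0424), Itgav (5.96 ± 0.721), Itga7 (3.13 ± 0.424), Itgb3 (2.51 ± 0.0495) and Itga2 (0.125 ± 0.0354), and there only Itgb5 and Itga5 overlapped.

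With doxycycline the order of the first 6 was the same in both genotypes and no neighbours overlapped. In WT they were Itga6 (173 ± 6.61 TPM), Itgb1 (117 ± 0.509), Itgb5 (35.4 ± 2.03), Itga3 (22.3 ± 2.64), Itga5 (18.7 ± 0.113) and Itgav (13.1 ± 1.75). The KO values were 240 ± 25.6, 174 ± 0.884, 40.4 ± 1.2, 34.4 ± 0.488, 24.0 ± 0.728 and 19.2 ± 1.03 TPM. Itgb3, Itga7 and Itga2 closed the list at 3.09 ± 0.141, 2.32 ± 0.127 and 0.005 ± 0.00707 TPM in WT and at 2.94 ± 0.255, 5.91 ± 1.42 and 0.165 ± 0.0919 in the KO. With retinoic acid Itgb1 (118 ± 1.03 TPM) stood above Itga6 (110 ± 1.95) in WT, followed by Itga3 (90.8 ± 5.85), Itga5 (57.8 ± 0.346), Itgb5 (54.8 ± 0.403), Itgav (33.2 ± 0.417), Itgb3 (7.53 ± 0.601), Itga7 (4.11 ± 0.368) and Itga2 (0.975 ± 0.148). The KO kept that order, with 165 ± 2.55, 83.0 ± 1.10, 67.9 ± 0.841, 51.2 ± 0.566, 45.9 ± 0.403, 23.3 ± 5.54, 8.51 ± 0.665, 4.66 ± 0.304 and 2.11 ± 0.113 TPM.

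The share of Itga6 among the alpha chains was highest with doxycycline and lowest with retinoic acid in both genotypes. It held 46.2% to 48.3% of all alpha chain TPM in untreated WT and 51.5% to 54.6% in untreated KO. Its share was 71.2% to 72.0% and 68.6% to 73.0% with doxycycline, and 32.9% to 34.3% and 31.4% to 31.6% with retinoic acid. With retinoic acid the share of Itga3 was 27.8% in WT and 25.8% in KO against 16.7% and 14.9% untreated, and that of Itgav 10.2% and 8.83% against 3.73% and 3.64%. Among the beta chains Itgb1 held 62.5% and 57.7% untreated, 73.1% and 77.4% with doxycycline, and 62.0% and 71.0% with retinoic acid, in WT and KO. The 17 family members outside the 9 together held at most 13.7% of the alpha and 19.0% of the beta TPM of any group mean. The most abundant of them were Itgb7, with group means of 1.19 to 13.7 TPM, Itga2b with 2.73 to 11.4, Itga9 with 2.05 to 10.4 and Itgb4 with 2.83 to 9.34.

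**Figure D1:**
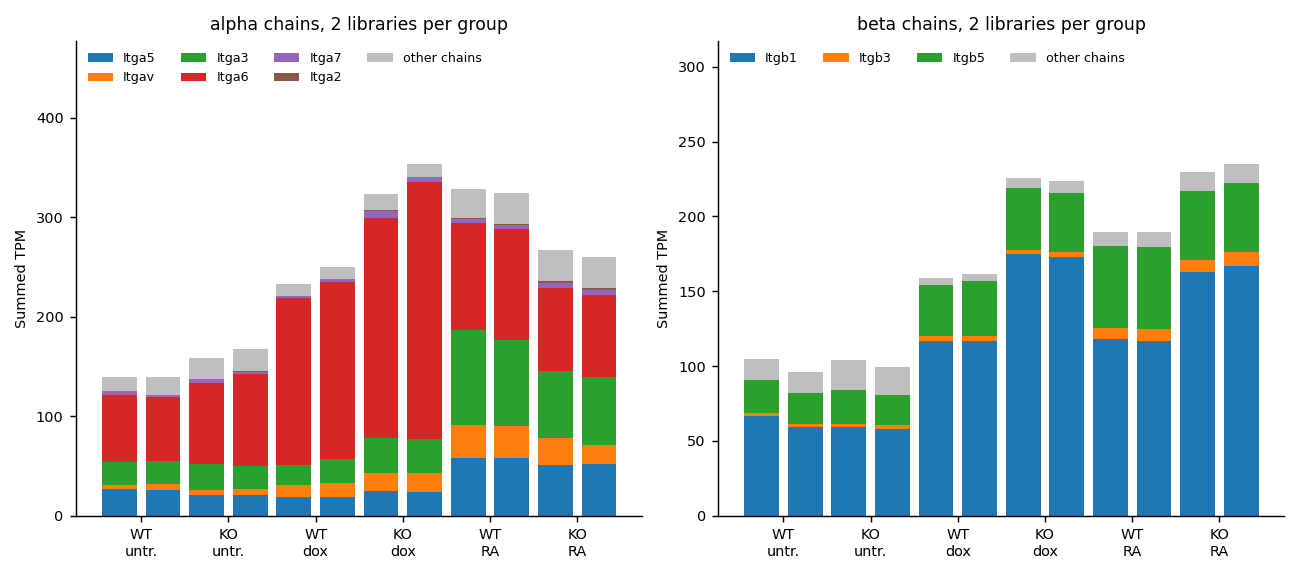
Summed TPM of alpha chains (left) and beta chains (right) in each of the 12 libraries, 2 bars per group, with the chains described here in colour and the other family members in grey. Itga6 (red, left) takes 71.6% of the alpha total in WT with doxycycline and 33.6% with retinoic acid.

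Each gene of the tables was compared between groups with edgeR's quasi-likelihood test, and a gene is called higher or lower at a Benjamini-Hochberg adjusted p under 0.05 over the 17884 genes tested. Between KO and WT, 3 of the 9 integrins were called higher and 2 lower in untreated cells, where 15.2% of all genes were called higher and 14.9% lower. With doxycycline 7 were called higher and 0 lower, beside 17.9% and 19.1% of all genes. With retinoic acid 2 were called higher and 5 lower, beside 18.8% and 20%. Itga2, which passed the filter through the retinoic acid groups, is among those called higher in each of these comparisons. The median log2 change of the 9 between KO and WT was -0.01 in untreated cells, 0.49 under doxycycline and -0.21 under retinoic acid, beside 0.02, 0.00 and -0.01 over all genes tested. Doxycycline against untreated gave 5 higher and 2 lower in WT, beside 31.8% and 31.3% of all genes, and 6 higher and 0 lower in the KO, beside 31.2% and 31.2%. Retinoic acid against untreated gave 8 higher and 0 lower in WT, beside 41% and 32.9% of all genes, and 7 higher and 1 lower in the KO, beside 40.9% and 34.6%. The medians of the 9 were 0.60 (WT) and 0.76 (KO) with doxycycline and 0.83 and 1.04 with retinoic acid, against 0.00, -0.00, 0.12 and 0.10 over all genes. The treatment response itself differed between the genotypes, by the interaction term of the same model, for 5 integrins with doxycycline, all called higher, where 9.11% of all genes were called higher and 10% lower. With retinoic acid it was called higher for 1 and lower for 3, beside 7.31% and 10.3%. Since the 9 genes were chosen with these contrasts known, nothing is read from their counts against those shares. Both comparisons of doxycycline and of retinoic acid in a genotype share the untreated libraries of that genotype.

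**Figure D2:**
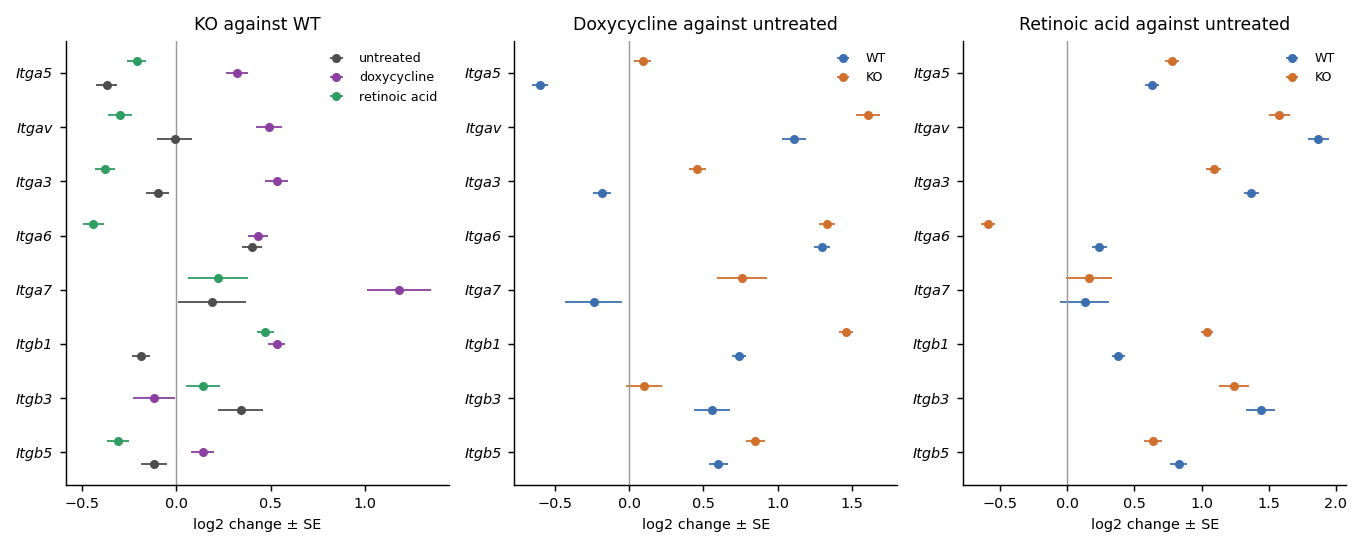
Log2 change ± SE of 8 integrins between KO and WT within each treatment (left), with doxycycline (middle) and with retinoic acid (right) in WT (blue) and KO (orange). Itga2 is left out because it has no reads in untreated WT. With doxycycline (purple, left) 7 of the 8 lie above 0, and Itgb3 lies at -0.12.

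Marker genes of other cell types moved with the treatments, and with bulk RNA fewer cells of a type and less RNA per cell cannot be told apart. The 10 trophectoderm markers summed to 81.0 to 85.0 TPM in untreated WT and 59.5 to 60.4 in untreated KO, and to 2107 to 2413 and 1473 to 1490 TPM with doxycycline. KO against WT, 6 of 9 tested trophectoderm markers fell untreated and 8 with doxycycline, and 0 rose, while with retinoic acid 2 rose and 5 fell. The 10 pluripotency markers summed to 572 to 573 TPM in WT and 467 to 499 in KO with doxycycline, where 2 rose and 6 fell in the KO against WT. With retinoic acid they summed to 4889 to 5385 TPM in WT and 3668 to 3685 in KO, and 9 of 10 fell in the KO and 0 rose (median log2 change -1.50). The 11 extraembryonic endoderm markers summed to 4.61 to 5.92 TPM in untreated libraries, 315 to 345 in WT and 834 to 857 in KO with retinoic acid, and 11 of 11 rose in the KO against WT there. Fibroblast markers, relevant to leftover feeder cells, summed to 43.6 to 45.0 TPM in untreated WT and 68.8 to 70.9 in untreated KO, where 5 of 15 tested rose in the KO and 1 fell. With doxycycline they summed to 22.9 to 25.6 and 44.2 to 47.0 TPM, and 7 of 15 tested rose in the KO and 0 fell. With retinoic acid they summed to 98.8 to 107 and 113 to 114 TPM, although 4 rose and 6 fell in the KO (median log2 change -0.24). Of the 17 fibroblast markers listed, Fap and Lum were at 0 in both libraries of untreated KO and of doxycycline WT, and Fap alone in untreated WT and retinoic acid WT. No fibroblast marker was at 0 in both libraries of doxycycline KO or retinoic acid KO. The 10 neural markers summed to 310 to 329 TPM untreated and 85.5 to 90.1 with retinoic acid. With doxycycline they summed to 63.9 to 67.1 TPM in WT and 143 to 150 in KO. Yet of 9 tested only Nes and Stmn2 rose in the KO there, and 3 fell. Untreated, 3 neural markers rose in the KO and 4 fell, and with retinoic acid 3 rose and 0 fell. The 10 leukocyte and platelet markers summed to 119 to 142 TPM untreated, 23.4 to 29.7 with doxycycline and 92.2 to 137 with retinoic acid. Of the 6 of these tested Laptm5 was highest, at 171, 24.2 and 116 CPM in untreated, doxycycline and retinoic acid WT. That list includes the integrins Itga2b and Itgb2. Ptprc, Pf4 and Tyrobp were at 0 in both untreated WT libraries, and no marker of the list was in both of retinoic acid KO. Among all genes 15.2% rose and 14.9% fell in the KO untreated, 17.9% and 19.1% with doxycycline, and 18.8% and 20% with retinoic acid. The part of these cell types in the integrin values was not tested.

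**Figure D3:**
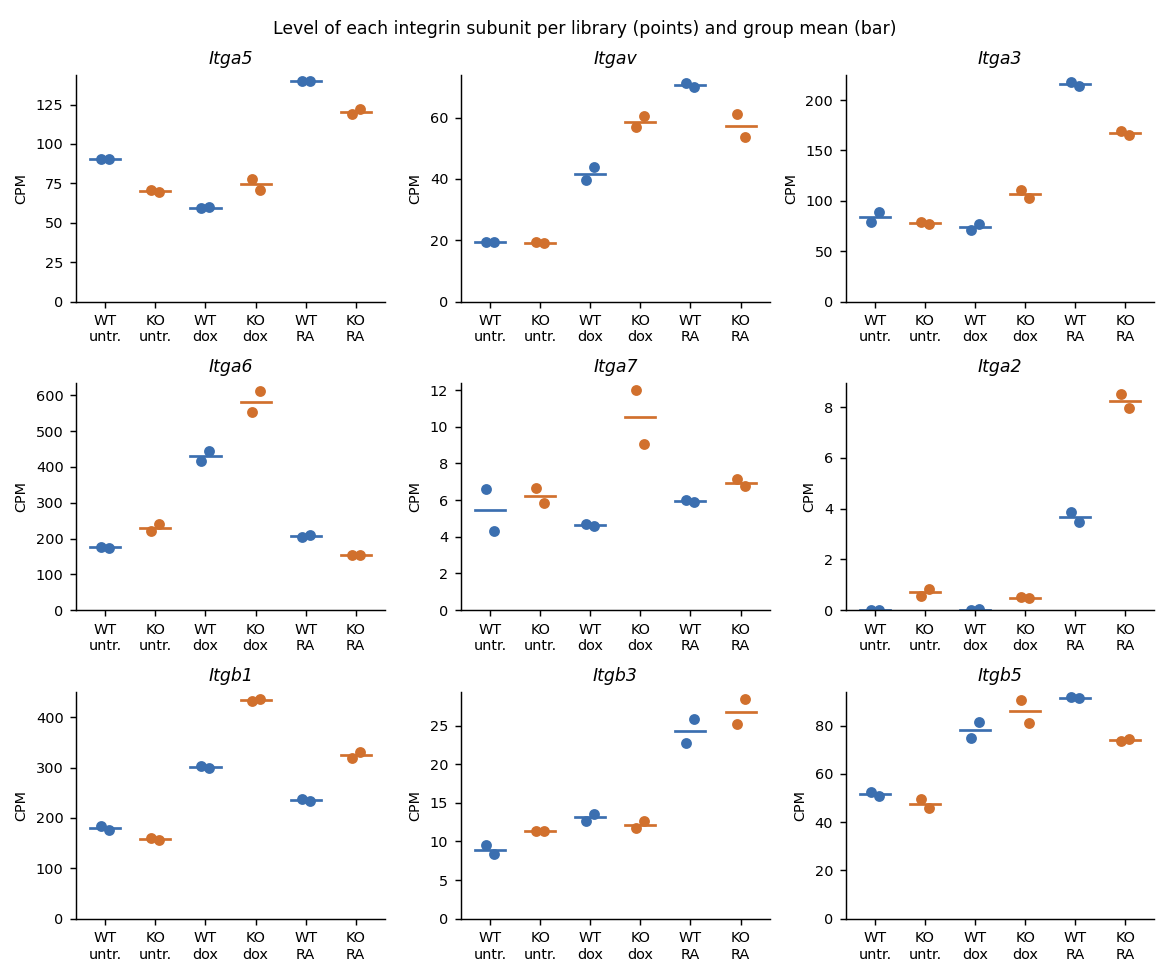
CPM of each of the 9 integrins in every library (points) with the group mean (bar), WT in blue and KO in orange, each panel from 0 on its own scale. Itga6 and Itgb1 are highest in KO with doxycycline, at 581 and 435 CPM, whereas Itga5, Itgav, Itga3 and Itgb5 are highest in WT with retinoic acid.

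Itga5, on chromosome 15 (103344286 to 103366763, minus strand, GRCm38), encodes the alpha chain of the classical fibronectin receptor. Its untreated levels were 90.5 and 90.7 CPM in WT and 71.1 and 69.4 in KO. With doxycycline they were 59.3 and 59.8 CPM in WT and 77.9 and 71.1 in KO, and with retinoic acid 140 and 140 in WT and 119 and 122 in KO. The genotypes did not overlap in any treatment, but their order did not stay the same: the KO libraries were lower untreated (log2 change -0.37 ± 0.056, SE), higher with doxycycline (0.32 ± 0.057) and lower with retinoic acid (-0.21 ± 0.051), all called. Doxycycline gave -0.60 ± 0.056 in WT, which was called, and 0.09 ± 0.057 in the KO, which was not. That KO value was called without replicate 2 of the doxycycline KO group (0.15). The doxycycline response was higher in the KO by 0.69 ± 0.080. Retinoic acid gave 0.63 ± 0.052 in WT and 0.78 ± 0.054 in the KO, both called, with a difference of 0.16 ± 0.075 that was not.

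Itgav, on chromosome 2 (83724397 to 83806916, plus strand), encodes the alphaV chain, which with beta3 or beta5 binds vitronectin and fibronectin. Untreated levels were 19.3 and 19.4 CPM in WT and 19.5 and 19.0 in KO, and the genotypes overlapped. Doxycycline libraries held 39.5 and 43.8 CPM in WT and 56.8 and 60.6 in KO, and retinoic acid libraries 71.4 and 70.0 in WT and 61.2 and 53.5 in KO. All 8 treated libraries were thus above all 4 untreated libraries. Log2 changes with doxycycline were 1.11 ± 0.083 in WT and 1.61 ± 0.080 in KO, and with retinoic acid 1.87 ± 0.077 and 1.58 ± 0.079, all called. Between KO and WT the change was -0.01 ± 0.094 untreated, which was not called, 0.49 ± 0.071 with doxycycline and -0.30 ± 0.065 with retinoic acid, both called. The difference in the doxycycline response was 0.50 ± 0.12, called by edgeR and not by limma on log2(TPM + 1), which gave 0.36. For retinoic acid it was -0.29 ± 0.11, which was called only when replicate 1 of the retinoic acid KO group was left out (-0.38).

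Itga3, on chromosome 11 (95044474 to 95076801, minus strand), encodes the alpha3 chain of a laminin receptor of epithelia. Untreated WT held 79.0 and 88.9 CPM and untreated KO 79.2 and 77.1, which overlapped. Doxycycline libraries held 71.1 and 77.1 CPM in WT and 111 and 103 in KO, and retinoic acid libraries 218 and 214 in WT and 169 and 165 in KO, without overlap of the genotypes. The KO against WT change was -0.10 ± 0.061 untreated (not called; -0.20 and called without replicate 1 of untreated WT), 0.53 ± 0.060 with doxycycline and -0.38 ± 0.054 with retinoic acid. Doxycycline gave 0.46 ± 0.060 in the KO and -0.18 ± 0.061 in WT. Both were called, but the WT call was lost without replicate 2 of untreated WT (-0.09), without replicate 1 of doxycycline WT (-0.12) and with limma (-0.07). The doxycycline response was higher in the KO by 0.63 ± 0.086. Retinoic acid gave 1.37 ± 0.057 in WT and 1.09 ± 0.058 in KO, and the difference of -0.27 ± 0.082 was called by edgeR but not by DESeq2 (-0.24) nor without any of 5 libraries in turn (-0.28 to -0.18).

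Itga6, on chromosome 2 (71745616 to 71858416, plus strand), encodes the alpha6 laminin receptor chain that is abundant on stem cells and trophectoderm. Untreated libraries held 177 and 174 CPM in WT and 221 and 240 in KO. Levels with doxycycline were 417 and 445 CPM in WT and 552 and 611 in KO, and with retinoic acid 204 and 211 in WT and 153 and 154 in KO. No 2 groups compared here overlapped. The KO was higher untreated (0.40 ± 0.055) and with doxycycline (0.43 ± 0.053) and lower with retinoic acid (-0.44 ± 0.055), all called. Doxycycline changed Itga6 by 1.30 ± 0.055 in WT and 1.33 ± 0.054 in KO, and the difference of 0.04 ± 0.076 was not called, with values down to -0.04 when single libraries were left out. Retinoic acid gave 0.24 ± 0.055 in WT and -0.59 ± 0.055 in KO, a called difference of -0.83 ± 0.078. On the TPM scale the KO value was -0.06 and was not called, where the median of all genes was 0.42 instead of 0.10.

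Itga7, on chromosome 10 (128933818 to 128958282, plus strand), encodes the laminin receptor chain best known from muscle. It was among the low members, with 69 to 214 counts per library. Untreated WT held 6.59 and 4.30 CPM and untreated KO 6.66 and 5.84, doxycycline WT 4.70 and 4.59, doxycycline KO 12 and 9.08, retinoic acid WT 5.96 ± 0.103 (SD, n = 2) and retinoic acid KO 6.95 ± 0.293. The doxycycline KO libraries were above all other 10. Against doxycycline WT the change was 1.18 ± 0.17 and against untreated KO 0.76 ± 0.17, both called. Doxycycline in WT gave -0.24 ± 0.19, which was not called and hung on the 2 untreated WT libraries, with 0.11 without replicate 1 and -0.50, called, without replicate 2. The difference in the doxycycline response was 0.99 ± 0.25, and this call was lost with DESeq2 (1.00, adjusted p = 0.051), with limma and without replicate 1 of untreated WT (0.65). Values of KO against WT untreated (0.19 ± 0.18; -0.09 without replicate 2 of untreated WT) and with retinoic acid (0.22 ± 0.16) and both retinoic acid responses (0.13 ± 0.18 and 0.16 ± 0.17) were not called.

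Itga2, on chromosome 13 (114833081 to 114932100, minus strand), encodes the alpha2 chain of the main collagen receptor of epithelia and platelets. It was the sparsest of the 9 and passed the filter on low counts through the retinoic acid groups. The 2 untreated WT libraries held 0 counts each and the 2 doxycycline WT libraries 0 and 1. KO libraries held 9 and 14 counts untreated and 9 and 8 with doxycycline. With retinoic acid there were 88 and 70 counts in WT (3.68 ± 0.271 CPM) and 182 and 152 in KO (8.23 ± 0.402 CPM). In each treatment the KO libraries were thus above the WT libraries. Taking 3 counts per library as the limit for untreated WT, the untreated KO mean of 0.714 CPM was at least 3.93-fold higher and the retinoic acid WT mean at least 20.3-fold higher. The ratio of summed counts after scaling was 16.9 (95% exact interval 2.66 to 708) for KO over WT with doxycycline and 2.23 (1.84 to 2.72) with retinoic acid. For retinoic acid over untreated KO it was 11.5 (7.53 to 18.4), and for doxycycline over untreated KO 0.685 (0.343 to 1.34). These intervals cover counting error only. Fitted log2 changes of Itga2 depend on the prior count, and the interaction with retinoic acid even turned its sign, from -5.56 to 0.49, when log2(TPM + 1) was used.

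Itgb1, on chromosome 8 (128685654 to 128733200, plus strand), encodes the beta1 chain shared by most receptors named above. Untreated levels were 184 and 177 CPM for WT and 161 and 156 for KO. Doxycycline libraries held 304 and 300 CPM in WT and 433 and 437 in KO, and retinoic acid libraries 237 and 234 in WT and 320 and 331 in KO. The genotypes never overlapped, with the KO below WT untreated and above it with either treatment. KO against WT the change was -0.19 ± 0.048 untreated (called; -0.09 and not called with limma on TPM), 0.53 ± 0.046 with doxycycline and 0.47 ± 0.046 with retinoic acid. Doxycycline gave 0.74 ± 0.047 in WT and 1.46 ± 0.048 in KO, and retinoic acid 0.38 ± 0.047 and 1.04 ± 0.047, all called. Both responses were higher in the KO, by 0.71 ± 0.067 with doxycycline and 0.65 ± 0.067 with retinoic acid. Itgb1 was the only member for which the retinoic acid response was called higher in the KO.

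Itgb3, on chromosome 11 (104608000 to 104670476, plus strand), encodes the beta3 chain of the vitronectin receptor and of the platelet fibrinogen receptor. Untreated WT held 9.53 and 8.34 CPM and untreated KO 11.3 and 11.4. With doxycycline it stood at 12.7 and 13.6 in WT and 11.7 and 12.6 in KO, and with retinoic acid at 22.8 and 25.8 and at 25.2 and 28.4. The 4 retinoic acid libraries were above all 8 others. Retinoic acid gave 1.44 ± 0.11 in WT and 1.24 ± 0.11 in KO, both called, and doxycycline 0.56 ± 0.12 in WT, called, and 0.10 ± 0.12 in KO, not called, with a difference of -0.46 ± 0.17 that was not called. The untreated KO value of 0.34 ± 0.12 was called, but without each of the 4 untreated libraries in turn it was not (0.24 to 0.43), nor with DESeq2 (0.33). KO against WT the change was -0.12 ± 0.11 with doxycycline and 0.14 ± 0.092 with retinoic acid, neither called.

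Itgb5, on chromosome 16 (33829665 to 33949338, plus strand), encodes the beta5 chain, which pairs with Itgav. Untreated levels were 52.3 and 50.8 CPM in WT and 49.4 and 45.8 in KO, doxycycline levels 74.9 and 81.3 in WT and 90.7 and 81.2 in KO, and retinoic acid levels 91.8 and 91.5 in WT and 73.5 and 74.6 in KO. The treated libraries were all above the untreated ones, and the genotypes overlapped only with doxycycline. Doxycycline gave 0.60 ± 0.064 in WT and 0.85 ± 0.065 in KO, and retinoic acid 0.83 ± 0.063 and 0.64 ± 0.065, all called. KO against WT the change was -0.12 ± 0.068 untreated (not called), 0.14 ± 0.061 with doxycycline (not called; 0.21 and called without replicate 2 of doxycycline KO) and -0.31 ± 0.059 with retinoic acid (called). Differences of 0.25 ± 0.091 in the doxycycline response and -0.19 ± 0.090 in the retinoic acid response were not called. The first of these was called under RLE scaling (0.27) and without replicate 1 of untreated KO (0.31), replicate 2 of doxycycline WT (0.32) or replicate 2 of doxycycline KO (0.33).

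Set side by side, the laminin receptor chain Itga6 and the common beta chain Itgb1 differed in the retinoic acid KO cells, where Itga6 was below WT and Itgb1 above it. With retinoic acid Itga5, Itgav, Itga3, Itga6 and Itgb5 were called lower in the KO and Itgb1 and Itga2 higher, and Itga7 and Itgb3 were not called. With doxycycline the 6 alpha chains and Itgb1 were called higher in the KO. The Itga2 call rests on 17 counts against 1 and was lost with limma on log2(TPM + 1). Itgb3 and Itgb5, the partners of Itgav, were not called.

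Of the 17 other family members 14 could be tested, and Itgad, Itgax and Itgb6 had too few counts. In untreated cells the median log2 change of the 14 was 0.36. There 15.2% of all genes were called higher and 14.9% lower, and 6 of the 14 rose in the KO and 0 fell. They include Itga2b, the platelet alpha chain (0.87 ± 0.18, adjusted p = 0.00036), Itgb4, the partner of Itga6 in hemidesmosomes (0.71 ± 0.13, adjusted p = 8.3e-05), Itgb7, a leukocyte beta chain (0.37 ± 0.10, adjusted p = 0.0065), Itga8 (0.70 ± 0.26, adjusted p = 0.041), Itga9 (0.30 ± 0.10, adjusted p = 0.03) and Itgal (0.45 ± 0.16, adjusted p = 0.041). Only Itga2b and Itgb4 were called with DESeq2 and without replicate 1 of untreated KO, where Itgb7 was at 0.29, Itga8 at 0.43, Itga9 at 0.27 and Itgal at 0.41. Without replicate 2 of untreated WT Itgb7 (0.32), Itga8 (0.41) and Itgal (0.23) were not called, nor was Itga9 without replicate 1 of untreated WT (0.18), nor were Itga9 (0.30) and Itgal (0.46) without replicate 2 of untreated KO. With doxycycline 5 of 14 rose in the KO against WT and 0 fell (median 0.48; 3 rose without replicate 2 of doxycycline WT or with DESeq2, and 2 with limma on log2(TPM + 1)), with retinoic acid 4 rose and 2 fell (median 0.33; 2 rose without replicate 1 of retinoic acid WT and 1 with DESeq2). Over all genes 17.9% were called higher and 19.1% lower with doxycycline, and 18.8% and 20% with retinoic acid. Itgb4 rose in the KO in all 3 treatments (0.66 ± 0.14 with doxycycline, adjusted p = 0.0004, and 0.69 ± 0.11 with retinoic acid, adjusted p = 1.3e-05). Doxycycline raised 3 and lowered 7 of the 14 in WT and raised 5 and lowered 7 in the KO. Of all genes it raised 31.8% and lowered 31.3% in WT, and raised 31.2% and lowered 31.2% in the KO. Itgb7 fell by 3.27 ± 0.15 (adjusted p = 3.1e-17) in WT and by 3.19 ± 0.14 (adjusted p = 7.3e-18) in KO, and Itgb8, a partner of Itgav, rose by 3.80 ± 0.47 (adjusted p = 4.4e-08) and 6.24 ± 0.48 (adjusted p = 3.5e-12), up to group means of 0.415 and 1.09 TPM. Untreated means of Itgb8 were 0.149 CPM in WT and 0.0624 in KO, below the limits of 0.182 and 0.187 CPM for these groups. The size of its rise is thus uncertain. Retinoic acid raised 6 and lowered 2 in WT and raised 7 and lowered 4 in KO, and Itga8 rose by 3.01 ± 0.19 (adjusted p = 4.7e-14) in WT and 2.30 ± 0.18 (adjusted p = 2.3e-12) in KO. The shares of all genes raised and lowered by retinoic acid were 41% and 32.9% in WT and 40.9% and 34.6% in KO.

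Genes of integrin ligands were taken as a list of 28, of which 27 were tested, and vitronectin (Vtn) was at or near 0. Retinoic acid raised 41% and lowered 32.9% of all genes in WT, and raised 40.9% and lowered 34.6% in KO. The median log2 change of all genes was 0.12 in WT and 0.10 in KO. Of the 27 ligand genes retinoic acid raised 24 and lowered 3 in WT (median log2 change 1.41). In KO it raised 24 of these ligand genes and lowered 1 (median 1.80). Among them were the type IV collagens of basement membrane, with Col4a1 rising by 5.73 ± 0.067 (adjusted p = 3.3e-30) in WT and 6.28 ± 0.068 (adjusted p = 1.7e-31) in KO, and Col4a2 by 6.30 ± 0.082 (adjusted p = 1.2e-25) in KO. Tenascin C (Tnc) had 0 reads in untreated WT and reached 8.67 CPM with retinoic acid. Osteopontin (Spp1), an RGD ligand of Itgav receptors, fell by 1.17 ± 0.053 (adjusted p = 2.4e-17) and 2.07 ± 0.055 (adjusted p = 7.3e-23). Ctgf fell by 0.65 ± 0.078 (adjusted p = 1.2e-07) in WT but rose by 0.30 ± 0.084 (adjusted p = 0.0027) in KO. The extraembryonic endoderm markers given above rose in the same libraries, and their part was not tested.

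Doxycycline raised 13 and lowered 12 of the 27 ligand genes in WT (median 0.12) and raised 14 and lowered 10 in KO (median 0.56). Over all genes it raised 31.8% and lowered 31.3% in WT, and raised 31.2% and lowered 31.2% in KO. Thrombospondin 1 (Thbs1) rose by 4.74 ± 0.098 (adjusted p = 4.9e-24) in WT and 5.85 ± 0.094 (adjusted p = 2.1e-26) in KO, and Cyr61, a matricellular ligand of alphaV integrins, by 3.23 ± 0.063 (adjusted p = 1.1e-25) and 4.71 ± 0.070 (adjusted p = 2.4e-28). Spp1 fell by 2.63 ± 0.057 (adjusted p = 6.1e-25) and 2.04 ± 0.055 (adjusted p = 1.2e-22), and the laminin linker Nid2 by 2.11 ± 0.053 (adjusted p = 2.1e-23) and 2.45 ± 0.053 (adjusted p = 8.2e-25). The response was higher in the KO for 10 ligand genes and lower for 1, Nid2 (-0.34 ± 0.073, adjusted p = 0.0013), with Ctgf (1.66 ± 0.11, adjusted p = 5.2e-10) and Cyr61 (1.48 ± 0.094, adjusted p = 3.7e-12) among the higher. That doxycycline difference was called higher for 9.11% of all genes and lower for 10%. For retinoic acid, where 7.31% of all genes were higher and 10.3% lower, 11 ligand genes were higher and 4 lower in the KO. Among these were the laminin chains Lamb1 (1.28 ± 0.080, adjusted p = 1.4e-12) and Lamc1 (1.2 ± 0.068, adjusted p = 1.6e-13), and Spp1 (-0.90 ± 0.075, adjusted p = 4.8e-10).

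Between KO and WT the ligand list split evenly in untreated cells, with 7 higher and 7 lower of 27 (median 0.07). Of all genes 15.2% were called higher and 14.9% lower there, 17.9% and 19.1% with doxycycline, and 18.8% and 20% with retinoic acid. Nephronectin (Npnt) rose by 0.93 ± 0.15 (adjusted p = 1.5e-05) and Lama1 by 0.66 ± 0.055 (adjusted p = 2.4e-10), while Cyr61 fell by 1.11 ± 0.077 (adjusted p = 9.6e-12). With doxycycline 13 rose and 3 fell (median 0.22), with Fbn1 (1.27 ± 0.15, adjusted p = 1.2e-07) and Col1a1 (1.25 ± 0.12, adjusted p = 1.3e-09) among the higher and Lamb1 (-0.47 ± 0.056, adjusted p = 9.8e-08) among the lower. Col1a1 and Fbn1 are also made by fibroblasts. Col1a1 is itself on the fibroblast marker list, of which 7 of 15 tested rose with doxycycline, 0 fell and 8 were not called. The part of fibroblasts in these values was not tested. With retinoic acid 13 rose and 5 fell (median 0.19). Among genes that reached 5 CPM in the higher group, the largest rises were those of Col4a2 (0.90 ± 0.060, adjusted p = 3.3e-11) and Lamb1 (0.89 ± 0.053, adjusted p = 1.2e-13), and Tnc (-1.04 ± 0.20, adjusted p = 0.00012) was among the lower.

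Adaptors and kinases of the integrin tails were a list of 30, all tested. Of all genes 15.2% were higher and 14.9% lower in untreated KO, 17.9% and 19.1% with doxycycline, and 18.8% and 20% with retinoic acid. KO against WT, 5 rose and 5 fell untreated (median 0.03), 16 rose and 6 fell with doxycycline (0.18), and 11 rose and 4 fell with retinoic acid (0.05). With doxycycline the scaffold Bcar1 (p130Cas) rose by 0.59 ± 0.055 (adjusted p = 1.2e-09) and the actin crosslinker Actn1 by 0.56 ± 0.050 (adjusted p = 4.2e-10), whereas tensin 1 (Tns1, on chromosome 1) fell by 1.21 ± 0.071 (adjusted p = 9.8e-14) and the kinase Ptk2b by 0.88 ± 0.18 (adjusted p = 0.00025). Parva, which joins ILK to actin, fell by 0.55 ± 0.11 (adjusted p = 0.00032) untreated. Doxycycline itself raised 19 and lowered 8 of 30 in WT and raised 20 and lowered 7 in KO. For all genes the shares raised and lowered were 31.8% and 31.3% in WT and 31.2% and 31.2% in KO. Nedd9 rose by 4.01 ± 0.14 (adjusted p = 5.6e-20) in WT and 3.32 ± 0.14 (adjusted p = 4.5e-18) in KO, zyxin (Zyx) by 2.59 ± 0.068 (adjusted p = 1.1e-21) in WT and Parva by 3.13 ± 0.084 (adjusted p = 1.2e-22) in KO. The Parva response was higher in the KO by 1.10 ± 0.13 (adjusted p = 2.5e-07). Retinoic acid raised 14 and lowered 11 in WT and raised 15 and lowered 10 in KO. It raised 41% and lowered 32.9% of all genes in WT, and raised 40.9% and lowered 34.6% in KO. Tensin 3 (Tns3) fell by 1.61 ± 0.051 (adjusted p = 6e-21) and 2.00 ± 0.052 (adjusted p = 5e-23).

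The 13 genes of integrin inhibition and trafficking were called in both directions in each of the 7 comparisons of groups. KO against WT, 3 rose and 2 fell untreated, 3 rose and 3 fell with doxycycline, and 5 rose and 1 fell with retinoic acid. Over all genes 15.2% rose and 14.9% fell untreated, 17.9% and 19.1% with doxycycline, and 18.8% and 20% with retinoic acid. Dab2, an endocytic adaptor for beta1 integrins and a known endoderm gene, rose with retinoic acid by 5.28 ± 0.093 (adjusted p = 1.9e-26) in WT and 8.20 ± 0.10 (adjusted p = 8.1e-30) in KO, a difference of 2.92 ± 0.22 (adjusted p = 4.9e-11). Rab11fip1, of recycling endosomes, rose with doxycycline by 2.08 ± 0.063 (adjusted p = 2e-21) in WT and 1.18 ± 0.068 (adjusted p = 5.7e-15) in KO and its KO against WT change with doxycycline was -0.99 ± 0.057 (adjusted p = 5.8e-14). Krit1, which relieves inhibition of the beta1 tail, rose in the KO untreated (0.49 ± 0.078, adjusted p = 1.6e-05) and with doxycycline (0.40 ± 0.071, adjusted p = 4.9e-05). Doxycycline raised 7 and lowered 4 in WT and raised 8 and lowered 2 in KO, and retinoic acid raised 9 and lowered 3 and raised 10 and lowered 2. The shares of all genes raised and lowered by doxycycline were 31.8% and 31.3% in WT and 31.2% and 31.2% in KO. Those for retinoic acid were 41% and 32.9% in WT and 40.9% and 34.6% in KO.

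Membrane partners of integrins, such as tetraspanins and syndecans, were a list of 12. KO against WT, 7 rose and 2 fell in untreated cells (median 0.25), 7 rose and 2 fell with doxycycline (0.54), and 7 rose and 1 fell with retinoic acid (0.25). For all genes, 15.2% rose and 14.9% fell untreated, 17.9% and 19.1% with doxycycline, and 18.8% and 20% with retinoic acid. The urokinase receptor Plaur fell by 1.02 ± 0.14 (adjusted p = 1.4e-06) untreated and rose by 1.44 ± 0.11 (adjusted p = 1.5e-11) with doxycycline, so that its doxycycline response was higher in the KO by 2.46 ± 0.18 (adjusted p = 3.6e-11). Sdc1 rose by 0.59 ± 0.078 (adjusted p = 9.2e-07) untreated and 1.10 ± 0.10 (adjusted p = 1.1e-09) with doxycycline, while Sdc4 fell by 1.34 ± 0.060 (adjusted p = 2.4e-16) with doxycycline. Doxycycline raised 5 and lowered 3 of 12 in WT and raised 6 and lowered 3 in KO, with the tetraspanin Cd63 rising by 1.61 ± 0.054 (adjusted p = 1.7e-20) and 2.18 ± 0.057 (adjusted p = 5.1e-23). Retinoic acid raised 6 and lowered 2 in WT and raised 8 and lowered 4 in KO. Over all genes doxycycline raised 31.8% and lowered 31.3% in WT, and raised 31.2% and lowered 31.2% in KO. Those shares for retinoic acid were 41% and 32.9% in WT and 40.9% and 34.6% in KO. Cd47, a partner of alphaV beta3, rose by 2.89 ± 0.12 (adjusted p = 1.4e-18) and 2.58 ± 0.11 (adjusted p = 3.6e-18), and the transporter chain Slc3a2 fell by 1.75 ± 0.055 (adjusted p = 6.3e-21) and 1.81 ± 0.056 (adjusted p = 2.3e-21).

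**Figure D4:**
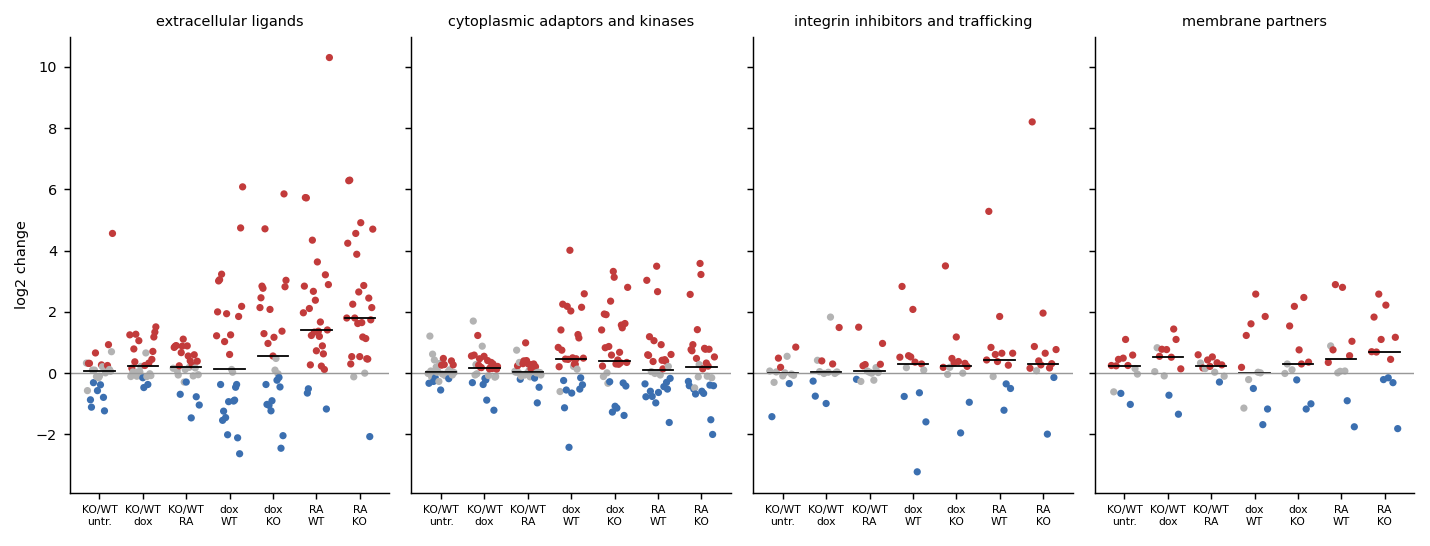
Log2 change of each tested gene of 4 integrin pathway lists in 7 comparisons, red where called higher, blue where called lower, grey otherwise, with the list median as a black line. The ligand list has medians of 1.41 (WT) and 1.80 (KO) with retinoic acid.

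The genes whose log2 CPM over the 12 libraries was most like that of each integrin were named by Pearson's r among 10860 genes, as a description of libraries that share treatment and depth. Itga6 was closest to Lims1 and Pkp2 (both r = 0.98), and Lims1 encodes the PINCH adaptor that binds ILK. Itgb1 was closest to Rac1 and Slc39a1 (0.99), and Rac1 is the small GTPase of cell spreading. Itgav was closest to Kif1b and Cdh24 (0.99), Itga3 to Dock11 and Frmd4b (0.98), Itga5 to Stk31 (0.99) and Tex11 (0.98), Itgb3 to Ppp1r3b and Ccser2 (0.99), and Itgb5 to Siah2 and Atg16l2 (0.98). For Itga2, with its many zeros, Spop and Olfr1372-ps1 were closest (0.99), and for Itga7 no gene passed Khdrbs3 and Tro (0.87).

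The 250 bases upstream of the annotated start are shown for Itga2, the member with 0 reads in untreated WT, and for Itgb1, the beta chain with reads in every library, to set a member that was detected everywhere beside a member that was not. RefSeq windows of GRCm38.p6 matched 6 of the 9 members, and Itga6, Itga7 and Itgb3 had no entry. Capitals mark GGGCGG, the GC box, on either strand, and both sequences are written 5′ to 3′ in the direction of transcription.
Itga2, chr13:114932101-114932350, minus strand: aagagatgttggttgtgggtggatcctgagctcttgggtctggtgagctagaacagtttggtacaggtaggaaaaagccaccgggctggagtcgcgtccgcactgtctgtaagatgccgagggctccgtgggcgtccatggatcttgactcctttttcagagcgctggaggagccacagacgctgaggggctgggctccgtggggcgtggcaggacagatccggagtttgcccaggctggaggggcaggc
Itgb1, chr8:128685404-128685653, plus strand: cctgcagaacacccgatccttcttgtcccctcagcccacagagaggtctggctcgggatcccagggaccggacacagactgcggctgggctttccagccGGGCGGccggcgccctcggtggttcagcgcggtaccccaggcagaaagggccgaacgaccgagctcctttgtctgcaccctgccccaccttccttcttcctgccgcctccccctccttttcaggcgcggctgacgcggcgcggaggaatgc
The Itga2 window held 12 CG dinucleotides at 60.8% GC and the Itgb1 window 21 at 68.0%, against medians of 6 and 52.4% over all 32851 windows of this length. Itgb1 held 1 GGGCGG and Itga2 none, and neither held the TATA box, spelled TATAAA, the AP-1 site, spelled TGACTCA, or the CCAAT box. Searched on both strands, the GC box occurred in 32.7%, the TATA box in 12.4%, the AP-1 site in 4.46% and the CCAAT box in 33.8% of all windows. Such matches are letters in a window and say nothing of a factor bound there.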

How the data were processed

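The submitters' processing notes name STAR 2.5.3a, RSEM 1.3.0 and DESeq2 1.18.1, and the build mm10. Which annotation release and strand setting were used is not given in the sources used here. Each deposited gene table holds, per the file headers, RSEM's expected counts, which divide reads shared between genes, and the authors' TPM. Annotated genes that overlap a member held at most 25 counts in any library.

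Expected counts were rounded (9.5% to 11.6% of genes per library were not whole), genes were filtered with filterByExpr at a minimum count of 10, and 17884 were fitted with edgeR 4.0.16 in R 4.3.3: 12 libraries, 1 coefficient per group, TMM scaling, 6 residual degrees of freedom, glmQLFit and glmQLFTest, Benjamini-Hochberg adjustment at 0.05 over all genes. SE values were taken as the absolute log2 change over sqrt(F). Test code was checked on simulated counts. Alternatives were RLE and upper-quartile factors, no filter, DESeq2 1.42.0, limma 3.58.1 on log2(TPM + 1) and log2(TPM + 0.1), a replicate block, only the groups compared, no chromosome 1 genes, and leaving out each library. The deposited TPM gave levels between genes.

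The members and gene lists were chosen with earlier results of these data known. Named were the 9 members, Phf6 and Pou5f1 as label checks, tested other integrins, up to 2 called genes with the largest change in each direction per list and comparison whose higher group reached 5 CPM, and the 2 genes most like each member by Pearson's r. Not every gene that the rule names is reported here. Of 53379 gene identifiers 53274 were found in GENCODE M21, which gave positions on GRCm38.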

Additional observations from a re-analysis of the deposited data

Results flagged for a closer look

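The response to a treatment was compared between KO and WT by the interaction term of the edgeR model, as a description of genes chosen with these results known. Over all genes tested 9.11% were called higher and 10% lower in this term for doxycycline, and 7.31% and 10.3% for retinoic acid. For doxycycline the log2 response in the KO minus that in WT was 0.69 ± 0.080 (SE) for Itga5, 0.50 ± 0.12 for Itgav, 0.63 ± 0.086 for Itga3, 0.99 ± 0.25 for Itga7 and 0.71 ± 0.067 for Itgb1. In Itga5 the WT response was -0.60 and the KO response 0.09, and in Itga3 they were -0.18 and 0.46, whereas Itgav and Itgb1 were higher with doxycycline in both genotypes and more so in the KO. Itga7 had -0.24 in WT and 0.76 in the KO, and its difference was not called with DESeq2 or limma, nor was that of Itgav with limma.

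For retinoic acid the difference was -0.83 ± 0.078 for Itga6, -0.27 ± 0.082 for Itga3, -5.56 ± 1.2 for Itga2 and 0.65 ± 0.067 for Itgb1. The Itga3 difference was not called with DESeq2 (-0.24). Itga6 was higher with retinoic acid in WT (0.24) and lower in the KO (-0.59), but limma on TPM gave -0.06 in the KO, which was not called. The Itga2 value is a fitted number set by the 0 reads in untreated WT and is no measure of size.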

How the results depend on the processing

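Of 1696 log2 changes of members under an alternative, 1628 kept direction and call. Of the others 33 lost a call, 14 gained one, and 20 uncalled values changed sign or went to 0.00. The Itga2 interaction with retinoic acid turned to 0.49 with log2(TPM + 1). Calls gained were those of Itgb5 in the KO with doxycycline under upper-quartile factors (0.20), of its doxycycline interaction under the same factors (0.32) and without chromosome 1 genes (0.26), and of Itga5 with doxycycline in the KO with limma (0.20 and 0.21). Calls lost were those of Itgb3 in untreated KO against WT without the filter (0.33), without chromosome 1 genes (0.32) and with limma (0.26 and 0.37), of Itga5 in the KO with retinoic acid with limma at the pseudocount of 0.1 (-0.17), and of Itga2 with limma on log2(TPM + 1) untreated (0.17) and with doxycycline (0.21) and, at 0.1, in the retinoic acid interaction (-0.12). The other changes of call for members stand beside their values above. Genes called between untreated KO and WT numbered 5369, against 3419 with DESeq2 and 3328 with limma on log2(TPM + 1), and members called numbered 5 against 2 with limma at that pseudocount and 3 at 0.1. With retinoic acid KO and WT differed in 6936 genes, against 4265 with DESeq2. The doxycycline interaction was called for 3425 genes, 1998 with DESeq2 and 1812 with limma, and for 5 members, 3 with limma at either pseudocount. The retinoic acid interaction was called for 3157 genes, 1746 with DESeq2 and 1983 with limma. The cause was not tested. Among list genes and other integrins 2953 of 3077 values kept direction and call, 114 lost the call and 10 turned, all with limma on TPM: Snx17 with retinoic acid to 0.05 in WT and 0.36 in KO, Rab4a in WT to 0.15, Sdc1 in KO to 0.11, and Dab2 in the doxycycline interaction to -0.35 and, at the smaller pseudocount, -0.16. On log2(TPM + 1) the median of all genes with retinoic acid was 0.43 in WT and 0.42 in KO, and upper-quartile factors put the doxycycline WT median at -0.11. Fits of only the groups compared left Itga2 untested in the comparisons without retinoic acid.

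Leaving out single libraries gave 4 to 5 members called between untreated KO and WT, 7 to 8 with doxycycline and 7 to 7 with retinoic acid. It gave 3700 to 5724, 5403 to 6500 and 4990 to 7301 genes for these. For the interactions it gave 4 to 6 and 3 to 4 members. Same-numbered replicates did not deviate together over all tested genes, with correlations of -0.09 to 0.08 over 15 pairs of groups. Pairing that touches few genes would not show in this measure, so it cannot settle whether the numbers pair the samples. A replicate block gave 5215 genes and 5 members called between untreated KO and WT.

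With 2 libraries a group the spread rests on few values, and a member at 69 to 214 counts such as Itga7 or at 0 to 182 such as Itga2 is limited by depth.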
